A study of Mus musculus with 6 samples.

Results

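In cultures of adult neural stem cells, 1107 regions of open chromatin kept a peak in every ATAC-seq library after mitogens were removed but became narrower. They were found by merging peaks of 6 libraries that overlapped by at least 1 bp on chromosomes 1 to 19. This gave 116783 regions, of which 39088 held a peak in all 6 libraries and are called shared regions here. In each shared region the peak lengths of a library were summed. A region was kept as narrower when its shortest length in the proliferating libraries exceeded its longest length in the differentiating libraries by at least 25%, and 1107 shared regions (2.83%) met this. Asking for the same excess only within each pair of same-numbered libraries would have kept 1855 (4.75%). The mirror rule, with the states exchanged, gave 1122 wider regions (2.87%). Since the lengths themselves chose the regions, lengths and signal in the 2 states are given below as a description and were not tested.

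The cultures came from the subependymal zone (SEZ) of 10-week-old mice whose Srr2 enhancer of Sox2 had been deleted with CRISPR-Cas9. The paper gives the genotype as Srr2del/del. All 6 libraries carry this mutation, so nothing below separates its effect from that of the culture conditions, while libraries of wild-type cells were not analysed here. Proliferating cells (PROLIF) were taken after 2 days in vitro (2 DIV) with mitogen, and differentiating cells (DIFF) 24 h after mitogen withdrawal (2 + 1 DIV) in medium with 2% fetal bovine serum. Replicates 1, 2 and 4 of each state were available, and the labels do not say whether they came from separate animals. Mitogen removal and the addition of serum cannot be told apart in this design.

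ATAC-seq cuts DNA that is free of nucleosomes, and a peak is a stretch where the cuts are denser than the local background. The width of a peak follows both how far the open stretch reaches and how strong its signal is, because the edges of a weaker signal sink below the threshold of the peak caller. Adult neural stem cells divide in response to growth factors such as FGF and EGF, whose receptors signal through RAS and the ERK kinases to the AP-1 factors, dimers of FOS and JUN proteins that bind TGACTCA. Factors of the basic helix-loop-helix class bind E-box words such as CAGCTG, and SOX2 binds words close to ACAATG.

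Sequences are shown first, because the AP-1 word had the largest ratio of shares between narrower and wider regions among the 16 motifs searched. The bases of a region that every PROLIF library covered with a peak and that no DIFF library covered are called lost. Below are the 6 lost stretches of 50 to 300 bases with TGACTCA in the regions of largest length ratio, each headed by the nearest protein-coding gene. They are written 5′ to 3′ on the plus strand of GRCm38, with TGACTCA or its reverse complement TGAGTCA in capitals.
Wdr95, chr5:149526495-149526794: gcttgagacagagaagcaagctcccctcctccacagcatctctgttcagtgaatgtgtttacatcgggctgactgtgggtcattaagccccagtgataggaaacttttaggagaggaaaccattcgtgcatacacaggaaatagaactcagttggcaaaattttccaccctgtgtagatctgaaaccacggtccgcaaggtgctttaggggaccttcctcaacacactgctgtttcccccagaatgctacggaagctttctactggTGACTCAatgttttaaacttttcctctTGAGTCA
Grk5, chr19:60946245-60946304: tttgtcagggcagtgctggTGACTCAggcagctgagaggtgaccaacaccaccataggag
Bcl3, chr7:19830990-19831145: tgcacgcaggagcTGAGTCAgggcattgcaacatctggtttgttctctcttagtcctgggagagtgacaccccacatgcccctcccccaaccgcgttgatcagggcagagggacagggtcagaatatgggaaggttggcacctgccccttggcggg
Ubtd1, chr19:42017926-42018148: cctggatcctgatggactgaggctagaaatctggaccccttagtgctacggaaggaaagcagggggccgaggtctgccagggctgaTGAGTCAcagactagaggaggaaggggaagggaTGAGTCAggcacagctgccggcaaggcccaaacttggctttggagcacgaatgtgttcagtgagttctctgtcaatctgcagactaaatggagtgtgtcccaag
Lrrc8c, chr5:105499523-105499626: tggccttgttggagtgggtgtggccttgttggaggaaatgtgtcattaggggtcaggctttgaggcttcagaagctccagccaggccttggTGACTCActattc
Gm21969, chr4:139598919-139599106: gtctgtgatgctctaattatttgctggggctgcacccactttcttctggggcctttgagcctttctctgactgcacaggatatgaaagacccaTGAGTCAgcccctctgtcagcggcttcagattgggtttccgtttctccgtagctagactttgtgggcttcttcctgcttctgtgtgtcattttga

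The Wdr95 stretch of 300 bases ended in a pair of AP-1 words. Its region had lengths of 641, 598 and 501 bp in PROLIF 1, 2 and 4, against 92, 143 and 105 bp in DIFF 1, 2 and 4. The Ubtd1 stretch held 2 AP-1 words and a CAGCTG word, in a region whose edge is 162 bp from a coding start site of the gene. In that region the lengths were 866, 758 and 594 bp in PROLIF and 233, 192 and 170 bp in DIFF. The Grk5 stretch was intronic and was part of a region of 1273, 943 and 1038 bp in PROLIF and 269, 315 and 323 bp in DIFF. GRK5 is a kinase of G-protein-coupled receptors.

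Bases under a peak in all 6 libraries are called kept. The 4 kept stretches of the same size range with TGACTCA in the regions of largest ratio follow. This second set was chosen after values had been seen.
Tanc1, chr2:59670475-59670555: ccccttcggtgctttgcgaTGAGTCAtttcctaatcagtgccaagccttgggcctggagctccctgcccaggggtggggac
Mtpn, chr6:35456091-35456279: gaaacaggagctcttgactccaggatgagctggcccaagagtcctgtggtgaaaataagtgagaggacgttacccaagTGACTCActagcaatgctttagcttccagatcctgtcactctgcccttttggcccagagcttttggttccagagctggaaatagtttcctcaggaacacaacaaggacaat
Pid1, chr1:84464937-84465035: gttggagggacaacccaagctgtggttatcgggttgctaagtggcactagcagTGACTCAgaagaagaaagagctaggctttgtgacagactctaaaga
Dlgap2, chr8:14651515-14651607: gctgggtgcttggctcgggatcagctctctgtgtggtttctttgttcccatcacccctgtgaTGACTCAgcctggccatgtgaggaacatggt

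Tanc1 had 955, 882 and 825 bp in PROLIF and 225, 102 and 218 bp in DIFF, with its AP-1 word inside the intronic stretch of 81 bases that stayed under a peak in every library. The Mtpn, Pid1 and Dlgap2 regions likewise held the word in bases covered in every library. The Pid1 region lies in an intron of Dner, which encodes a Notch ligand.

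Whole-library facts that bear on these regions are few. The lists held 60006 to 88039 peaks, with PROLIF 4 the shortest and DIFF 4 the longest, and read totals were not used here. The 6 marker genes of neural stem cells, Sox2, Nes, Vim, Fabp7, Slc1a3 and Sox9, had a promoter peak in all 6 libraries. Of 8 microglial genes, 3 or 4 had one in each library, with Cd68 among them in the 3 PROLIF libraries only. Of 7 endothelial genes, Kdr and Flt1 had a promoter peak in every library and Pecam1 in the 3 PROLIF libraries only.

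The narrower regions were of ordinary width in PROLIF and short in DIFF. Their median length was 614, 601 and 533 bp in PROLIF 1, 2 and 4, close to the 600.5, 574 and 477 bp of all shared regions. In DIFF 1, 2 and 4 it was 242, 244 and 264 bp, against 525, 556 and 595 bp for all shared regions. The median region had a DIFF length 0.464 times its PROLIF length, where all shared regions had 1.02. Wider regions showed the mirror of this, with 267, 253.5 and 205 bp in PROLIF and 522.5, 563.5 and 577 bp in DIFF.

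**Figure D1:**
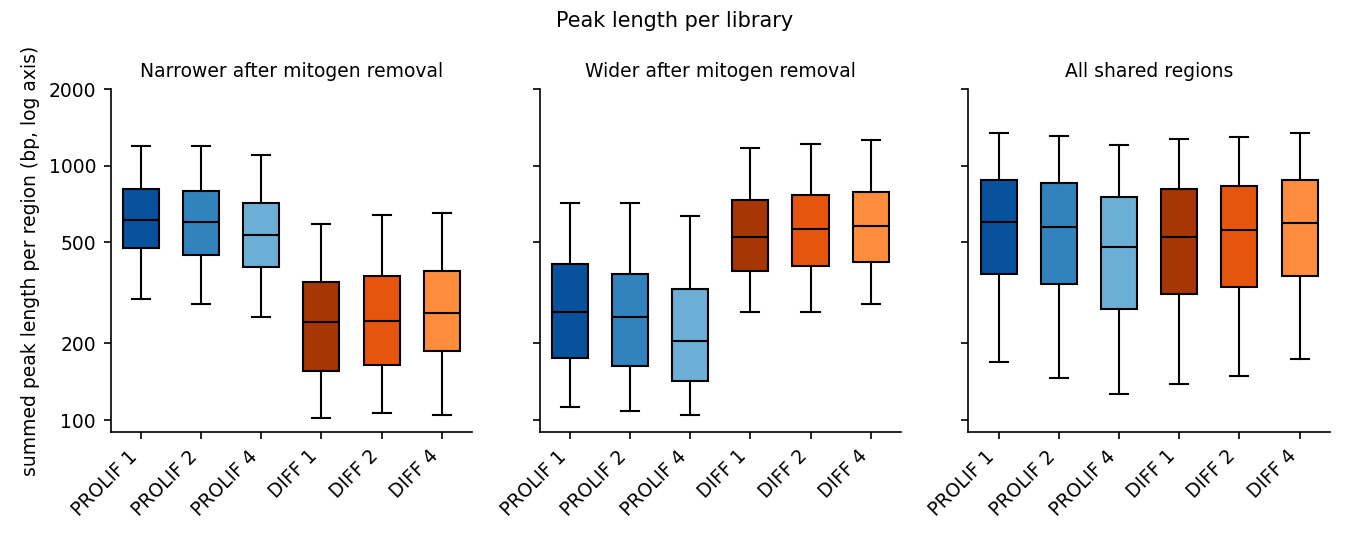
Summed peak length per region (bp, log axis) in each library for the 1107 narrower, 1122 wider and 39088 shared regions. Boxes span the quartiles with the median as a line, and whiskers run from percentile 5 to 95. PROLIF medians of the narrower regions lie at 533 to 614 bp and DIFF medians at 242 to 264 bp, as the choice of regions requires.

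Most ratios were close to the threshold. Between the smallest PROLIF and the largest DIFF length, 592 regions had a ratio under 1.5, 362 from 1.5 to 2, 129 from 2 to 3 and 24 of 3 or more. The regions just inside the threshold were near Ust, Kat6b and Slc10a7, and those just outside near Gm16223, Vps8 and Dusp6. The Ust region had 586, 865 and 540 bp in PROLIF and 231, 371 and 432 bp in DIFF. The Dusp6 region had 985, 732 and 637 bp in PROLIF and 510, 268 and 491 bp in DIFF, and was the closest to the threshold of those that missed it. DUSP6 is an ERK phosphatase.

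Signal strength moved with length. Fold enrichment at the strongest summit, which compares the reads there with the library's own local background, had medians of 9.74, 7.98 and 7.26 in PROLIF and 4.19, 4.88 and 4.14 in DIFF. It was lower in every DIFF than in every PROLIF library in 859 narrower regions (77.6%), where the share over all shared regions was 14.3%. Ranked within its own list by −log10 p, the strongest peak of a narrower region had a median percentile of 76.1, 70.4 and 67.7 in PROLIF and of 39.3, 39.3 and 48.8 in DIFF. The percentile was lower in every DIFF than in every PROLIF library in 800 narrower regions (72.3%), beside 11.7% of all shared regions. The median difference, DIFF minus PROLIF, was -27.1 percentile points in narrower regions, 24.2 in wider ones and 2.32 over all shared regions. These measures come from the same peaks as the lengths and carry no separate evidence.

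The rule can be read in lengths that took no part in the choice. All 6 libraries still set the shared regions and their bounds, and the sets chosen here differ from the narrower set. When the rule was applied to 4 libraries and the pair of the remaining replicate number was left out, 1758 regions were chosen without replicate 1, 1984 without replicate 2 and 4054 without replicate 4. In the pair left out, PROLIF was at least 25% longer than DIFF in 81.0% of them for replicate 1, beside 32.7% of all shared regions. For replicate 2 the share was 71.8% beside 24.4%. In the pair of replicate 4 it was 38.1% beside 10.5%. Under the mirror rule, DIFF was at least 25% longer in 37.0%, 57.2% and 81.2% of chosen regions in the pairs of replicates 1, 2 and 4. Over all shared regions these shares were 13.7%, 21.3% and 42.8%. In replicate 4 the DIFF list was the longest of the 6 and the PROLIF list the shortest, and over all shared regions its median PROLIF to DIFF ratio was 0.849, beside 1.08 and 1.01 in replicates 1 and 2. Chosen regions had median ratios of 1.88, 1.65 and 1.09 in the 3 pairs. Every pair thus showed longer PROLIF peaks more often among chosen regions than among all shared regions, with the smallest excess in percentage points, and the largest as a ratio of shares, in replicate 4. The part of list length in this was not tested.

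**Figure D2:**
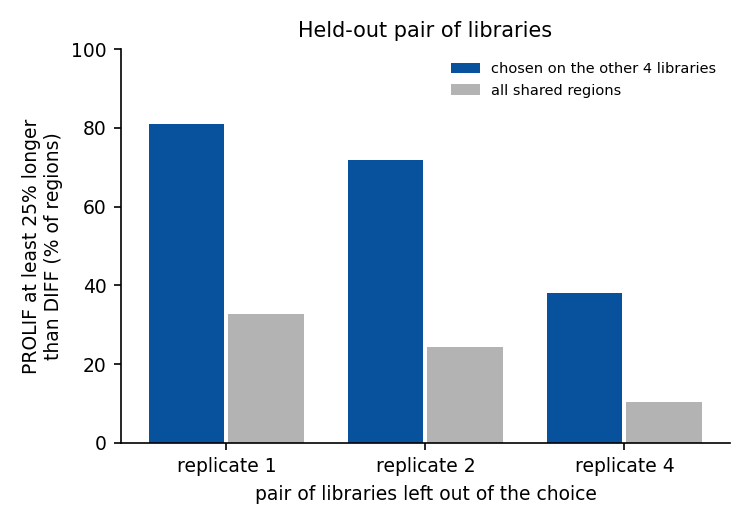
Share of regions (%) in which the PROLIF length exceeded the DIFF length by at least 25% in the pair of libraries whose lengths were left out of the choice. Blue bars are regions chosen on the other 4 libraries (81.0%, 71.8% and 38.1%), grey bars all 39088 shared regions (32.7%, 24.4% and 10.5%).

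Lost bases lay mostly at the edges, which the number of peaks nearly fixes. In DIFF 1, 2 and 4, 94.4%, 93.6% and 89.9% of narrower regions held a single peak. Bases can be lost inside a region only where DIFF peaks leave a gap between them. Of the 1107 regions, 1025 (92.6%) had lost bases outside the outermost DIFF peak edge. The mirror share, of wider regions with bases gained at an edge, was 92.0%. In 506 they lay at 1 edge only and in 429 at both edges, while 33 regions had lost bases only between DIFF peaks and 90 had both kinds. Only 2 regions had a separate peak in every PROLIF library that met no DIFF peak. In 49 regions no base was lost by this definition. The median region lost 127 bases (quartiles 66 and 205, largest 848) and kept 157. Where both edges had lost bases, the larger side held a median of 74.5% of them.

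The summit, the position of the strongest signal, was a median of 27 bp apart between the states, beside 18 bp over all shared regions. It was within 50 bp in 71.5% of narrower, 76.4% of wider and 77.3% of all shared regions. Within the PROLIF libraries alone the summits of a region spread over a median of 51 bp in narrower and 52 bp in all shared regions. In 56 regions (5.06%) a PROLIF summit lay within lost bases, beside 133 (0.340%) of all shared regions. At least 50 bases were lost in 896 of the 1107 narrower regions but in only 2277 of the 39088 shared regions. The contrast in summits therefore cannot be separated from the choice of regions, and no further property of narrower regions is read from it. Centred on the median summit of the 6 libraries, 65.2 to 74.5% of regions were still covered in PROLIF at 200 bp to the left and 19.8 to 22.8% in DIFF. At the summit itself coverage was 99.1 to 99.9% in PROLIF and 94.3 to 94.9% in DIFF. Near genes the loss had no fixed side. Of 129 narrower regions within 1 kb of a coding start site, 116 had lost edge bases, with more of them on the downstream edge in 60 and on the upstream edge in 56.

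**Figure D3:**
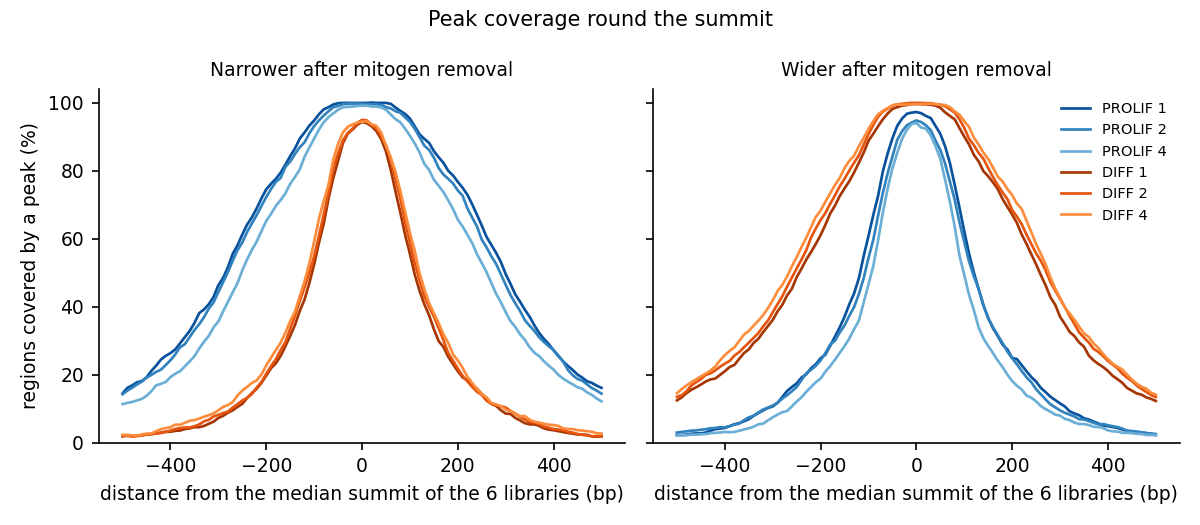
Regions covered by a peak (%) against the distance from the median summit of the 6 libraries (bp), for narrower (left) and wider (right) regions, 1 line per library. The PROLIF lines of the narrower regions are broader on both sides, with 65.2 to 74.5% of regions covered at 200 bp left of the summit against 19.8 to 22.8% in DIFF.

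Narrower regions were mostly away from promoters. Of the 1107, 306 (27.6%) lay within 3 kb of an annotated start site, 324 (29.3%) in introns, 429 (38.8%) between genes and 48 (4.34%) over exons. Over all shared regions 46.8% were within 3 kb of a start site. Of wider regions 28.8% were. The median distance to a protein-coding start site was 25897 bp for narrower regions, 17912 bp for wider and 8429.5 bp for all shared regions. Within 3 kb of start sites, narrower regions had a median GC content of 51.7%, beside 58.4% for all shared regions and 51.5% for wider ones. Further away the 3 sets had 47.8%, 48.6% and 48.4%. A region with a peak in each PROLIF library but none in DIFF lay within 25 kb of 8.13% of narrower regions, beside 7.58% of wider and 6.40% of all shared regions. A region with a peak in each DIFF library but none in PROLIF did so for 11.7%, 13.8% and 11.96%.

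The largest ratio, 7.85, belonged to a region between genes at chr6:148727955-148729165, nearest to Ipo8, which encodes an importin. Its lengths were 1131, 1133 and 966 bp in PROLIF and 87, 123 and 88 bp in DIFF. The region nearest Sema3c, a secreted semaphorin of axon guidance, followed at chr5:17550840-17552023 with 1184, 1155 and 1160 bp against 115, 149 and 208 bp. The third was 2631 bp from the start of Inhba, which encodes the activin beta A subunit, with 474, 678 and 522 bp against 86, 99 and 76 bp. All 3 were at most 208 bp in every DIFF library, and the first and second were 966 bp or longer in every PROLIF library. The shortest peaks of the DIFF 1, 2 and 4 lists were 84, 92 and 68 bp, so several of these DIFF lengths were close to the smallest in their lists. The Inhba region was weak in both states, with fold enrichment of 3.25, 3.38 and 3.63 in PROLIF and 2.98, 3.66 and 3.11 in DIFF. Its percentile was not lower in DIFF, at 10.7, 17.1 and 18.4 in PROLIF and 10.9, 19.2 and 29.6 in DIFF.

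Near Rasa1, which encodes a GTPase-activating protein of RAS, the lengths were 912, 703 and 836 bp in PROLIF and 120, 118 and 154 bp in DIFF, and fold enrichment was 12.1, 10.6 and 8.06 against 4.10, 5.81 and 4.71. Near Sfswap, a regulator of splicing, the region had 976, 945 and 955 bp against 199, 156 and 216 bp and held 2 AP-1 words in its lost bases. The intronic region of Sipa1l2, a protein of the RAP GTPase-activating family, had 588, 692 and 586 bp against 134, 113 and 132 bp. The 10 largest were completed by regions near Zfp978, Hhipl2, Celf4 and Adgrg5, with ratios from 3.76 to 4.78. Only 1 of the 10, that of Inhba, was within 3 kb of a start site.

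**Figure D4:**
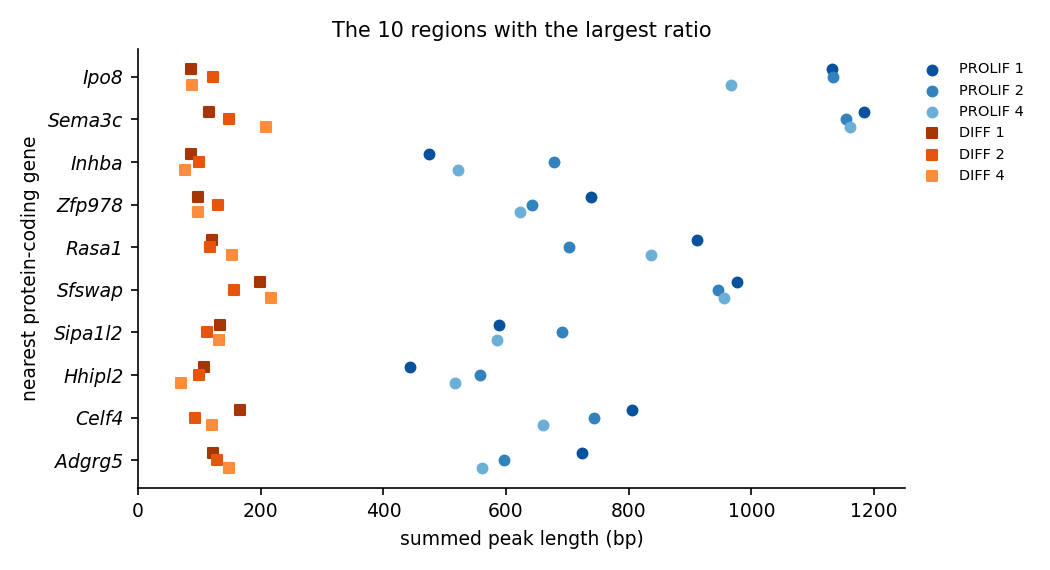
Summed peak length (bp) in each of the 6 libraries for the 10 narrower regions of largest ratio, named by the nearest protein-coding gene. Circles are PROLIF and squares DIFF libraries. Every DIFF value is at most 216 bp and every PROLIF value at least 444 bp.

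Among regions within 1 kb of a coding start site, the predicted gene Gm17677 had the largest ratio, 3.51, with 668, 797 and 544 bp in PROLIF and 91, 107 and 155 bp in DIFF. The start of Tnfrsf12a, the receptor of the cytokine TWEAK, lay in a region of 978, 1147 and 968 bp against 222, 346 and 340 bp that held 2 AP-1 words, both in its lost bases. Its fold enrichment overlapped between the states, at 7.26, 5.06 and 5.86 in PROLIF and 5.02, 5.89 and 5.82 in DIFF. Here the lengths did not overlap between the states while the fold enrichments did. Tal1, a helix-loop-helix factor of blood cells, had 824, 902 and 586 bp against 212, 175 and 225 bp. Pfkp, a phosphofructokinase of glycolysis, had 820, 881 and 1005 bp against 328, 292 and 156 bp. The others of this group were at Btn1a1, Hist1h2af, Gm9999, Tle6, Ubtd1 and Cyp2r1, with ratios from 2.54 to 2.80.

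Narrower regions were scattered over many genes. They were nearest to 987 of the 14583 protein-coding genes with a shared region (6.77%), of which 876 had 1, 103 had 2, 7 had 3 and 1 had 4. The gene with 4 was B230118H07Rik, with 18 shared regions. Those with 3 were Car10, Tenm3, Rapgef5, Sema6d, Plxna2, Ntm and Tmem121. Sema6d is a transmembrane semaphorin and Plxna2 a semaphorin receptor, while Tenm3 encodes a teneurin and Ntm an adhesion protein of neurons. The 3 Sema6d regions were all intronic and were 3 of its 10 shared regions. The one with the largest ratio had 804, 646 and 632 bp in PROLIF and 145, 153 and 291 bp in DIFF. Near Adgrl2, a latrophilin receptor, a region had 1055, 1363 and 1429 bp against 220, 254 and 304 bp. Nearest genes are positional only, and some of these regions lay over 1 Mb from the gene's start, such as 1 of Tenm3 at 1834499 bp.

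Gene lists for the pathways of this transition were looked up next. Over 11 lists, 28 of the 754 shared regions nearest to their genes (3.71%) were narrower and 18 (2.39%) wider, beside 2.83% and 2.87% of all shared regions. By gene, 23 of the 176 with a shared region (13.1%) had a narrower one, beside 6.77% of all protein-coding genes, and the listed genes had more shared regions each than the average gene. The AP-1 genes had 2 of 39, both between genes. The region near Jun had 688, 723 and 721 bp in PROLIF and 481, 465 and 439 bp in DIFF, and that near Atf3 had 421, 336 and 375 bp against 211, 180 and 160 bp. Feedback regulators and targets of ERK had 4 of 92, a pair nearest Spry2, an inhibitor of receptor tyrosine kinase signaling, and a pair nearest Myc. The Spry2 regions were 82418 and 25625 bp from its coding start site, and the Myc regions 222541 and 91339 bp. The longer Spry2 region had 1257, 1551 and 1041 bp against 548, 454 and 519 bp. No region of either list was wider.

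Mitogen receptors and ligands had 3 narrower of 75, 1 in an intron of the IGF receptor gene Igf1r and a pair near Fgf1. Another 3 were wider, near Fgfr2, Pdgfra and Fgf1, so Fgf1 had regions of both kinds. In the cell cycle list 2 of 81 were narrower (2.47%), below the share over all shared regions, and 1 was wider, near Cdk1. The Ccnd1 region overlapped the start of this gene for cyclin D1 and had 682, 662 and 501 bp in PROLIF and 221, 175 and 228 bp in DIFF. Its fold enrichment was 4.15, 4.12 and 3.95 against 3.46, 3.67 and 3.40. Its percentile overlapped between the states, at 61.4, 58.7 and 55.9 in PROLIF and 56.0, 52.4 and 63.3 in DIFF. The Ccnd2 region, 2502 bp from the start, had 483, 402 and 225 bp against 161, 95 and 118 bp. CCND2 is another D-type cyclin.

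Of the neural stem cell genes, Nes, Hes1 and Sox2 had 1 narrower region each, 3 of 100, and 4 were wider. Nes encodes the intermediate filament nestin, and the region 2672 bp from its start had 1035, 1017 and 999 bp in PROLIF and 118, 223 and 480 bp in DIFF. For Sox2, the region was 117554 bp from the start site at chr3:34532363-34532851, with 476, 485 and 447 bp against 141, 261 and 283 bp. At the Sox2 start site itself the region had 1434, 1358 and 1145 bp against 1009, 878 and 1042 bp. Its ratio of 1.10 left it outside the narrower set although every DIFF length was below every PROLIF length. Its percentile overlapped between the states, at 85.8, 85.2 and 79.1 in PROLIF and 88.5, 80.1 and 91.7 in DIFF. The other 19 of the 21 shared regions nearest Sox2 had ratios below 1. Among them, the region at chr3:35141025-35142460 and 490620 bp from the start site was a wider region, with 220, 597 and 205 bp in PROLIF and 1436, 860 and 1315 bp in DIFF.

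Matrix and adhesion genes had 6 of 105 narrower, nearest the integrin genes Itga6, Itgav, Itgb1 and Itgb3 and a pair nearest Tnc, the gene of tenascin C. Another 3 were wider, near Itgav, Mmp2 and Timp3. The narrower Itgav region, 9315 bp from the coding start site, had 494, 739 and 380 bp in PROLIF and 93, 126 and 155 bp in DIFF. The Hippo and TEAD list had 5 of 56 narrower and 4 wider, the wider ones near Yap1, Ccn1, Amotl1 and Amotl2. Ccn1 and Amotl2 thus had regions of both kinds. The narrower region at the start of the YAP target Ccn1 had 1214, 1154 and 1166 bp against 829, 559 and 805 bp. That of Ccn2, another YAP target, had 390, 560 and 474 bp against 144, 180 and 95 bp. The narrower Ccn1 region kept its rank within the lists, at percentile 77.1, 76.4 and 71.8 in PROLIF and 75.9, 75.1 and 78.6 in DIFF. A pair near Tead1 and 1 near Amotl2 completed the narrower regions of this list.

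Of the remaining lists, TGF-beta genes had 1 of 50 narrower (Ltbp1), astrocyte genes 1 of 47 (Gjb6), neuronal genes 1 of 74 (Sox4) and oligodendrocyte lineage genes 0 of 39, with 1, 0, 1 and 1 wider. Microglial genes had 1 of 16 narrower, near Ptprc, and 0 wider, and endothelial genes 0 of 29 narrower and 1 wider. Whether other cells had a part in any of these widths was not tested.

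Sequence content was not used by the rule. TGACTCA, searched on both strands without regard to overlap with other words, was present in 312 narrower regions (28.2%), in 107 wider regions (9.54%) and in 12.9% of all shared regions. The merged regions had similar median sizes, 709, 686 and 768 bp. The share did not follow the ratio, with 28.7% for ratios under 1.5, 26.8% for 1.5 to 2 and 29.4% above. Among regions over 3 kb from every start site, 236 narrower regions held the word (29.5%), beside 9.14% of wider and 14.4% of all shared regions.

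Within the narrower regions the AP-1 word was denser in kept than in lost bases, at 0.740 and 0.430 matches per kb. Kept bases of all shared regions had 0.168 per kb and those of wider regions 0.196. The bases gained by wider regions, the mirror of lost bases, had 0.0963 per kb. Of 896 narrower regions with at least 50 lost bases, 61 (6.81%) had the word there, beside 113 of 2277 (4.96%) over all shared regions, which include the narrower ones. The lost bases of all shared regions had 0.404 matches per kb, close to the 0.430 of narrower regions. Over 3 kb from start sites its density within 50 bp of the summit was 1.02 per kb in narrower regions, 0.225 in wider regions and 0.365 over all shared regions, and at 200 to 500 bp from the summit it was 0.223, 0.159 and 0.182. The difference between the sets was thus larger close to the summit than away from it.

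E-box and SOX words were also denser round the summits of narrower regions. CAGCTG was present in 665 narrower regions (60.1%), 39.7% of wider and 45.9% of all shared regions. Over 3 kb from start sites it reached 2.97 per kb within 50 bp of the summit, beside 1.20 and 1.75. CAGATG was in 56.5%, 41.1% and 43.0%. ACAAAG or ACAATG, words of SOX factors, were in 804 narrower regions (72.6%), 65.7% of wider and 60.6% of all shared regions, with 3.38, 2.30 and 2.40 per kb near the summit.

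The remaining words were spread in various ways. TTGGCA, part of the NFI site, was in 42.9% of narrower, 47.8% of wider and 39.3% of all shared regions. CATTCC, bound by TEAD factors, was in 40.7%, 41.3% and 36.3%. The CTCF motif was in 53 narrower regions (4.79%), beside 9.36% of wider and 8.94% of all shared regions. GGGCGG, the word of SP and KLF factors, was in 19.5%, 20.8% and 39.4%. All shared regions also lay near start sites more often than narrower or wider ones. Over 3 kb from start sites GGGCGG was in 12.7%, 12.9% and 15.2%. CCGGAA, of ETS factors, was in 13.9%, 8.91% and 23.0%. Over 3 kb from start sites CCGGAA was in 10.9%, 5.13% and 9.71%, so its lower share than in all shared regions did not hold there. RUNX (TGTGGT) was in 42.5%, 41.6% and 37.1%, RFX (GTTGCCAT) in 4.88%, 3.48% and 4.15%, and POU (ATGCAAAT) in 6.50%, 3.65% and 4.67%. The CRE word (TGACGTCA) was in 2.17%, 0.980% and 2.28%, with a ratio between narrower and wider regions below that of AP-1 only. Over 3 kb from start sites the CRE word was in 1.75%, 0.751% and 0.841%. Homeobox words (TAATTA) were in 13.3%, 16.0% and 12.2%, FOX words (TGTTTAC) in 9.21%, 11.4% and 9.09% and STAT words (TTCCNGGAA) in 2.71%, 2.67% and 2.83%. A match to a word is not a bound site, and binding was not measured in these libraries.

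**Figure D5:**
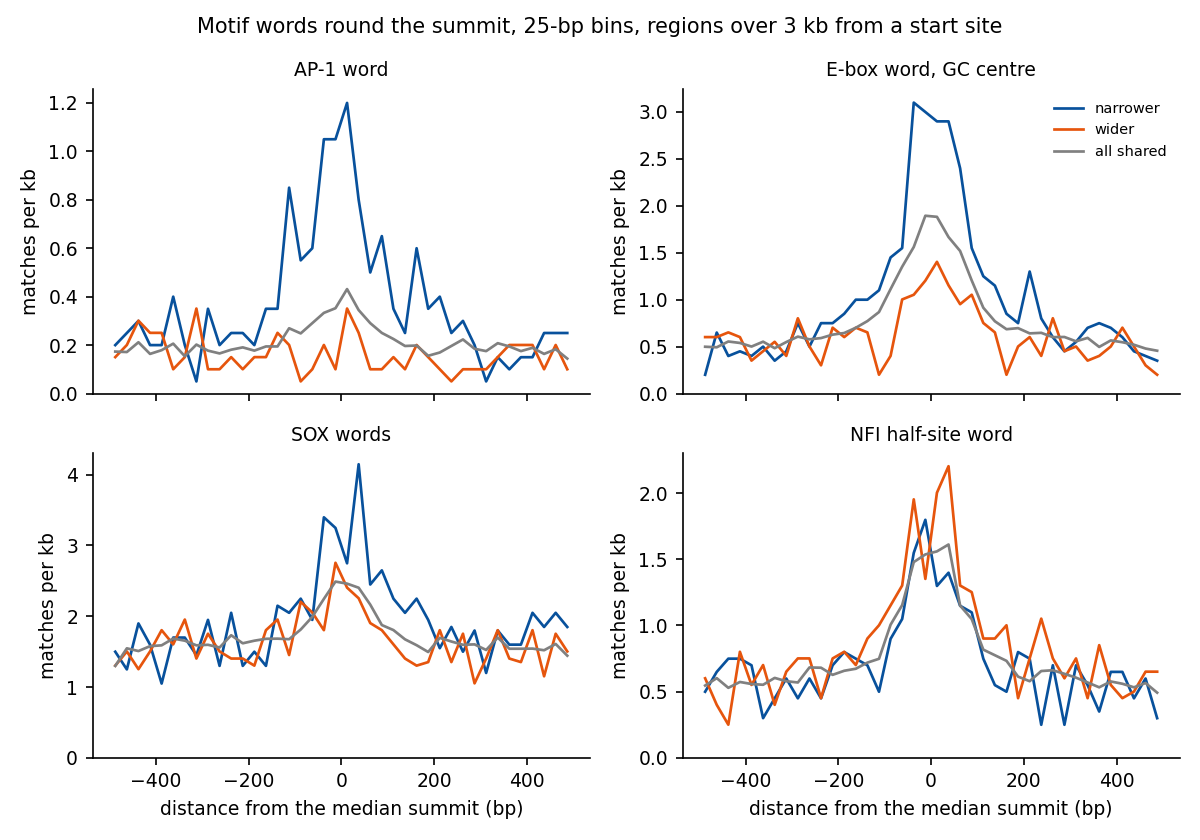
Matches per kb in 25-bp bins against the distance from the median summit (bp), for regions over 3 kb from every start site. Within 50 bp of the summit the AP-1 word reached 1.02 per kb in narrower regions (blue), 0.225 in wider regions (orange) and 0.365 in all shared regions (grey), while the NFI word was at 1.51, 1.88 and 1.55.

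The libraries also carry numbers in their peak names that fall into a lower range (PROLIF 1, PROLIF 4 and DIFF 1) and a higher range (PROLIF 2, DIFF 2 and DIFF 4), whose meaning is not given in the sources used here. Within these ranges the median DIFF to PROLIF length of the narrower regions was 0.447 and 0.472, beside 0.987 and 1.01 over all shared regions. The choice of regions fixes that both values lie below 1, so they do not bear on whether the ranges differ.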

How the data were processed

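ATAC-seq peak lists of 6 Srr2-mutant SEZ cultures were analysed, 3 PROLIF and 3 DIFF, grouped by the labels. The treatment labels name RNA, and the libraries were read as ATAC-seq of the stated state and replicate. After adapter removal (Cutadapt) and quality trimming (Trimmomatic), the authors aligned reads to GRCm38 (mm10) using Bowtie2. Picard marked duplicates, and MACS2, run with no model and an FDR of 0.05, called the peaks of every library on its own. Versions, read extension, any transposase shift and any blacklist are not given in the sources used here, and each can move peak edges. Replicates were not pooled. The deposited score, 10 times the −log10 q cut to a whole number, was not used further. The deposited fold enrichment compares a summit with local background and the deposited −log10 p and q values test it against that background.

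Regions, lengths, lost and kept bases, positions and motif words were computed with Python 3.11.15, pandas 2.3.3, NumPy 2.4.6 and pysam 0.24.0 (SciPy 1.17.1 for intervals behind the alternatives, matplotlib 3.10.9 for plots). Sequence came from the RefSeq GRCm38.p6 genome and start sites from GENCODE M21, of the same build. The list symbols Cyr61 and Ctgf were renamed to Ccn1 and Ccn2 through RefSeq synonyms. The steps were tested on simulated peak lists. Depth per library is unknown, since a peak list holds no read total, and no interval was given.

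Named regions were the 10 of largest ratio, the 10 of largest ratio within 1 kb of a coding start site, those of the 10 genes with most of them, those of the gene lists and of Sox2, the 3 just inside and the 3 just outside the threshold, and 6 with TGACTCA in lost bases. The regions, lists and words were chosen with earlier results of these data known. The replicate numbers were checked for pairing by the correlation of log2 length deviations from the state mean. Alternatives were another ratio, scaled lengths, shortened lists, a stricter q, the longest peak, a replicate block, each library left out, and other distances and definitions.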

Additional observations from a re-analysis of the deposited data

How the results depend on the processing

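The number of narrower regions was 515 with a ratio of 1.5, 1855 under the replicate block (the ratio asked within each same-numbered pair) and 1292 to 2447 with a library left out, most without PROLIF 4 and over 1.5 times the 1107 also without any DIFF library (1805 without DIFF 1, 1862 without DIFF 2, 2167 without DIFF 4). Wider regions numbered 456, 1936 and 1387 to 2722 in the same settings, with over 1.5 times the 1122 without any PROLIF library (2722, 2144 and 1981 without PROLIF 1, 2 and 4) or without DIFF 1 (2110). Fewer libraries put fewer demands on a region. Scaled lengths (1301), shortened lists (777), a q of at most 0.01 (1079) and the longest peak (1144) kept the number within 1.5 times, and 723 of the 1107 regions were found again from the shortened lists, in which fewer peaks were merged. In the libraries with lower or higher numbers in their peak names alone, chosen after seeing the data, it was 5691 and 4910. The promoter share was 26.7 to 28.8% with a library left out, and 17.3% within 1 kb of a start site. The AP-1 share of lost stretches was 5.43 to 7.30% with a library left out and 7.40% for bases lost from at least 2 PROLIF libraries. For shares added after seeing the data, AP-1 words were in 25.4% of regions under the replicate block and 23.0 to 27.4% with a library left out. Lost edge bases were in 94.2% with a ratio of 1.5, 90.5% with scaled lengths, 80.6% under the replicate block and 93.4 to 95.2% with a library left out. The median percentile difference by fold enrichment was -26.8. Length deviations of same-numbered libraries correlated at 0.0280 to 0.0760 and those of other pairs at -0.0609 to 0.0253, so each library correlated best with its own number, but too weakly to show pairing. Read depth was not known, so a weaker library can shorten its own peaks, and a gap below the caller's threshold is not closed chromatin.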
